A study of Homo sapiens with 6 samples.

Results

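The 10 enzymes that make serine and pass its one-carbon unit to folate were examined in OVCAR3, an established human ovarian cancer cell line, after knockdown of NUF2. They were the rows of the deposited table with the gene names PHGDH, PSAT1, PSPH, SHMT1, SHMT2, MTHFD1, MTHFD1L, MTHFD2, MTHFD2L and ALDH1L2, which is 10 of the 19973 genes listed and 10 of the 12874 genes with enough reads to be tested. The set was chosen from the measured difference between shNUF2 and shNC in these same libraries, so fold changes of its members are given as a description and without a test. The study asked how NUF2, a kinetochore protein that attaches chromosomes to the spindle, acts in epithelial ovarian cancer. Its RNA-seq compared 3 libraries of OVCAR3 cells transfected with shNC, a control hairpin in cells of genotype WT, with 3 libraries of OVCAR3 cells transfected with shNUF2, a hairpin in cells of genotype NUF2 knockdown. Both hairpins were expressed from a plasmid with a U6 promoter and a puromycin resistance gene, and the study describes its silenced cells as stable. Whether they were pools or single clones, and whether the 3 libraries of a group came from separate cultures, is not stated, so p-values measure only the spread between these libraries, which may be technical.

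Serine is built from the glycolytic intermediate 3-phosphoglycerate by PHGDH, PSAT1 and PSPH in turn. Serine hydroxymethyltransferases then split serine into glycine and a one-carbon unit that is carried on tetrahydrofolate, in the cytosol by SHMT1 and in mitochondria by SHMT2. Mitochondrial enzymes oxidize this unit to formate, which leaves the organelle and is used in the cytosol for purine, thymidylate and methionine synthesis. The pathway is known for its high activity in many proliferating tumor cells.

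The libraries held between 13057534 and 16995452 counted reads, and the targeted gene followed its labels. NUF2 had 65.2 ± 2.94 normalized counts (CPM, counts scaled to the TMM-adjusted library size, mean ± SD, n = 3) with shNC and 22.9 ± 2.40 with shNUF2, a log2 fold change of -1.51 (standard error 0.08, edgeR quasi-likelihood test, Benjamini-Hochberg adjusted p = 2.17e-15). Of 8 markers of OVCAR3 and serous epithelium, 7 were tested. All 8 summed to 239 to 275 FPKM (reads scaled to gene length and library total) with shNC and 284 to 312 with shNUF2. Most of this sum came from KRT7, KRT8 and KRT18, with 169, 49.5 and 35.3 FPKM with shNC and 142, 99.2 and 50.4 with shNUF2. MUC16, PAX8, EPCAM and CDH1 had 1.12, 1.39, 1.41 and 0.230 FPKM with shNC and 0.651, 2.11, 2.21 and 0.136 with shNUF2. WT1 had at most 7 reads in any library. The summed FPKM of 6 fibroblast markers was 9.44 to 10.1 with shNC and 7.36 to 8.23 with shNUF2, that of 3 endothelial markers 0.226 to 0.439 and 0.462 to 0.679, and that of 5 leukocyte markers 0 to 0.123 and 0.487 to 0.774. No marker was at 0 reads in all 6 libraries. The part of the marker differences in the results below was not tested.

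The set took a smaller share of the reads after knockdown. The 10 genes together held 0.183%, 0.190% and 0.184% of all counted reads in the shNC libraries (replicates 1 to 3, an order kept throughout), and 0.0710%, 0.0749% and 0.0721% in the shNUF2 libraries. A total of 8 members were lower in every shNUF2 library than in any shNC library, beside 35.4% of all genes tested. The remaining 2 members, MTHFD1L and MTHFD2L, were higher in every shNUF2 library, beside 35.2% of all genes tested. In these bulk samples, fewer cells expressing a gene and less RNA per cell cannot be told apart. With the study's thresholds (log2 fold change beyond 1 and unadjusted p under 0.05), 5 members were counted as lower, namely PHGDH, PSAT1, PSPH, MTHFD2 and ALDH1L2, beside 4.16% of all genes tested. None of the members (0) was counted as higher, beside 9.41% of all genes tested. Because the choice of the set used this contrast, the counts are not read against these shares. Of the members, MTHFD2 lay nearest to the threshold on the inside (log2 fold change -1.10, standard error 0.05), and MTHFD1 (-0.78) and SHMT2 (-0.76) nearest on the outside.

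**Figure D1:**
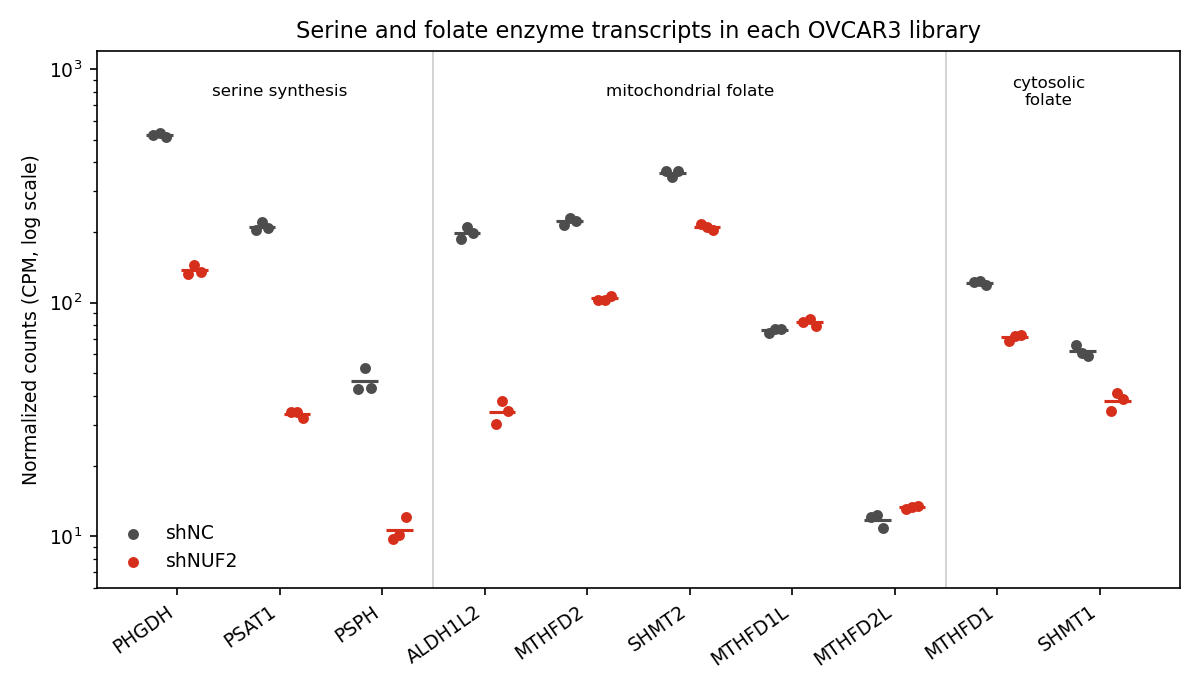
Normalized counts (CPM, log axis) of the 10 enzymes in each library, with shNC in grey, shNUF2 in red and the group mean as a line. The shNUF2 points lie below all shNC points for 8 enzymes, from PHGDH to SHMT1, and above them for MTHFD1L and MTHFD2L.

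The 3 enzymes of serine synthesis were all lower with shNUF2, by 3.80-fold for PHGDH, 6.33-fold for PSAT1 and 4.33-fold for PSPH. Their summed FPKM was 165.9, 180.3 and 168.6 in the shNC libraries and 32.6, 34.8 and 33.2 in the shNUF2 libraries. No shNUF2 library reached the lowest shNC library for any of the 3 genes. The promoter of PSAT1, the gene with the largest difference, is shown first, because CCAAT, the letters of the common box bound by the factor NF-Y, occur in it 3 times. The sequence gives the 250 bases before the RefSeq start of PSAT1 on the plus strand of GRCh38.p14 (chr9:78296875-78297124), none of which is exonic in GENCODE release 29, with each CCAAT in capitals at 113, 83 and 52 bases before the start.
PSAT1: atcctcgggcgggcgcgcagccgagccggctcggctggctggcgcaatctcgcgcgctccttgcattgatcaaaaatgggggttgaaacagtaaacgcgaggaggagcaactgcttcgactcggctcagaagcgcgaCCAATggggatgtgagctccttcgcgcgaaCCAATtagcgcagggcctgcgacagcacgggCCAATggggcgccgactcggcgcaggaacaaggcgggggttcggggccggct

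PHGDH (ENSG00000092621, chromosome 1, 119648411 to 119744218, plus strand) encodes the dehydrogenase that commits 3-phosphoglycerate to serine. It had 520, 536 and 514 CPM in the shNC libraries and 132, 145 and 135 CPM in the shNUF2 libraries. The groups stood far apart, with little spread inside either. The mean went from 523 ± 11.0 to 138 ± 6.69 CPM (SD, n = 3), which left 26.3% of the shNC level, a log2 fold change of -1.93 (standard error 0.05).

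PSAT1 (ENSG00000135069, chromosome 9, 78297125 to 78330093, plus strand) encodes the aminotransferase of the next step. Its values were 204, 221 and 210 CPM with shNC and 34.1, 34.2 and 32.0 CPM with shNUF2. The shNUF2 libraries were nearly alike and all were low. The log2 fold change of -2.66 (standard error 0.05) was the largest decrease in the set, with 15.8% of the shNC level left. Its rank, number 15 from the lowest of the 12874 genes tested, comes from the contrast that chose the set.

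PSPH (ENSG00000146733, chromosome 7, 56011051 to 56051604, minus strand) encodes the phosphatase that releases serine. It was the weakest expressed of the trio, with 42.8, 52.3 and 42.9 CPM in the shNC libraries and 9.72, 10.1 and 12.03 CPM in the shNUF2 libraries. Replicate 2 of shNC was the high library and the groups did not overlap. The mean was 46.0 ± 5.44 CPM with shNC and 10.6 ± 1.25 CPM with shNUF2 (SD, n = 3), a log2 fold change of -2.11 (standard error 0.10) resting on as few as 131 reads in a library.

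The balance inside the serine pathway also shifted. The FPKM ratio of PSAT1 to PHGDH was 1.68 ± 0.0423 with shNC and 1.01 ± 0.0514 with shNUF2 (SD, n = 3), and no library of one group reached the other. The FPKM ratio of PHGDH to PSPH, at 3.45 ± 0.318 and 3.93 ± 0.495, overlapped between the groups. Which of PSAT1 and PHGDH had the higher level depended on the gene length used. With the length of the principal GENCODE transcript in place of the deposited length (2585 in place of 9187 base pairs for PHGDH), the ratio of PSAT1 to PHGDH was 0.478 with shNC and 0.287 with shNUF2.

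**Figure D2:**
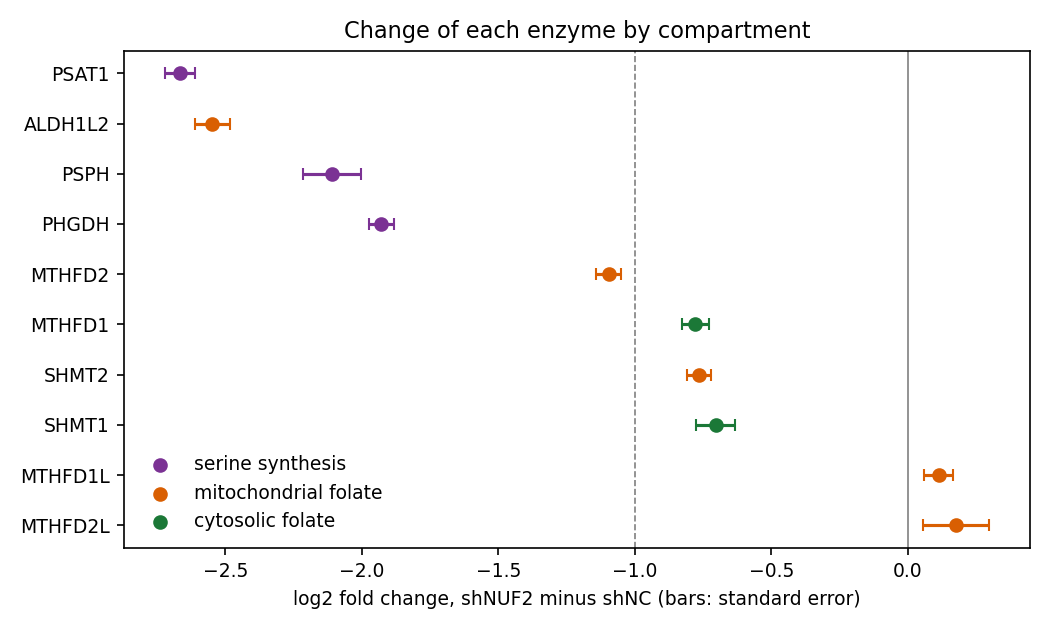
Log2 fold change (shNUF2 minus shNC) of each enzyme with its standard error, colored by serine synthesis, mitochondrial folate and cytosolic folate enzymes, with a dashed line at -1. The serine enzymes lie between -2.66 and -1.93, the cytosolic enzymes at -0.78 and -0.70, and the mitochondrial enzymes spread from -2.55 to 0.18.

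The 5 mitochondrial folate enzymes did not move together. ALDH1L2 and MTHFD2 were below the threshold, SHMT2 was lower by a smaller amount, and MTHFD1L and MTHFD2L had small positive log2 fold changes, of 0.11 (standard error 0.05) and 0.18 (standard error 0.12). The deposited gene ontology terms place all 5 in the mitochondrial matrix, SHMT2 and MTHFD1L also in the cytosol, and MTHFD1, counted here as cytosolic, in both the cytosol and the mitochondrion.

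ALDH1L2 (ENSG00000136010, chromosome 12, 105019784 to 105107643, minus strand) encodes the mitochondrial formyltetrahydrofolate dehydrogenase, which releases the one-carbon unit as carbon dioxide and makes NADPH. It had 188, 212 and 198 CPM with shNC and 30.3, 37.9 and 34.2 CPM with shNUF2. Every shNUF2 library was far below every shNC library. The mean went from 199 ± 11.8 to 34.1 ± 3.76 CPM (SD, n = 3), leaving 17.1%, and the log2 fold change was -2.55 (standard error 0.06). Its cytosolic counterpart ALDH1L1, named after its values were seen, had 1 read in shNUF2 replicate 3 and no read in the other libraries, so the pair could not be compared.

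SHMT2 (ENSG00000182199, chromosome 12, 57229573 to 57234935, plus strand) encodes the mitochondrial serine hydroxymethyltransferase. Its values were 367, 344 and 367 CPM in the shNC libraries and 218, 212 and 205 CPM in the shNUF2 libraries. The groups did not overlap, and 58.9% of the shNC level was left. The log2 fold change was -0.76 (standard error 0.04), short of the threshold.

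MTHFD2 (ENSG00000065911, chromosome 2, 74186172 to 74217565, plus strand) encodes the mitochondrial dehydrogenase and cyclohydrolase that is high in embryos and many tumors. It had 216, 230 and 223 CPM with shNC and 103, 103 and 107 CPM with shNUF2. All shNUF2 libraries lay close together below the shNC libraries. The level left was 46.8%, and the log2 fold change was -1.10 (standard error 0.05). In GENCODE release 29, 33.2% of the exon length of MTHFD2 (4870 base pairs) overlaps genes on the opposite strand. The deposited length is 11443 base pairs, so the share may differ for the gene model that was counted. The strand setting of the counting is not given in the sources used here, so reads of these neighbours may be included.

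MTHFD2L (ENSG00000163738, chromosome 4, 74114174 to 74303099, plus strand), a paralog of MTHFD2 with the same enzyme activities, showed the opposite sign. Its values were 12.1, 12.3 and 10.9 CPM with shNC and 13.1, 13.3 and 13.4 CPM with shNUF2. The groups did not overlap, but the gap was small. The log2 fold change was 0.18 (standard error 0.12), and the gene had 172 to 202 reads per library.

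MTHFD1L (ENSG00000120254, chromosome 6, 150865679 to 151101887, plus strand) encodes the mitochondrial enzyme that releases formate. It had 74.4, 77.2 and 77.1 CPM with shNC and 82.8, 84.9 and 79.8 CPM with shNUF2. The shNUF2 libraries were all higher than the highest shNC library. The mean was 76.2 ± 1.56 and 82.5 ± 2.55 CPM (SD, n = 3), a log2 fold change of 0.11 (standard error 0.05).

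Both cytosolic folate enzymes were lower by similar amounts, and neither was past the threshold. MTHFD1 (ENSG00000100714, chromosome 14, 64388031 to 64463457, plus strand) encodes the trifunctional enzyme that interconverts the cytosolic folate forms. Its values were 123, 123 and 119 CPM with shNC and 68.8, 71.7 and 72.4 CPM with shNUF2. No library of one group reached the other. The log2 fold change was -0.78 (standard error 0.05), with 58.3% of the shNC level left.

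SHMT1 (ENSG00000176974, chromosome 17, 18327860 to 18363563, minus strand) encodes the cytosolic serine hydroxymethyltransferase. It had 66.0, 60.8 and 59.2 CPM with shNC and 34.5, 41.1 and 38.5 CPM with shNUF2. The groups did not overlap, and the spread inside each was wider than for MTHFD1. The log2 fold change was -0.70 (standard error 0.07), with 61.4% left.

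Setting the compartments against each other gave no common direction. The median log2 fold change was -2.11 for the 3 serine enzymes, -0.76 for the 5 mitochondrial folate enzymes and -0.74 for the 2 cytosolic ones, beside -0.94 for all 10 members and -0.01 for all genes tested. The mean log2 fold change of the mitochondrial enzymes minus that of the cytosolic enzymes was -0.08, but ALDH1L2 alone set its sign, since without it (an alternative chosen after seeing the data) the difference was 0.35. In the single libraries, the mean log2 CPM of the mitochondrial minus the cytosolic enzymes was 0.24, 0.34 and 0.34 with shNC and 0.29, 0.20 and 0.20 with shNUF2. These values overlapped. Without ALDH1L2 they were 0.03, 0.11 and 0.12 with shNC and 0.53, 0.38 and 0.40 with shNUF2, which did not overlap.

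Enzymes that do the same chemistry in the 2 compartments differed pair by pair. The FPKM ratio of SHMT2 to SHMT1 was 9.21 ± 0.539 with shNC and 8.87 ± 0.990 with shNUF2 (SD, n = 3) and overlapped between the groups. The FPKM ratio of MTHFD2 to MTHFD1 was 1.96 ± 0.0732 with shNC and 1.57 ± 0.0354 with shNUF2, and all shNUF2 libraries were lower. In contrast, the ratio of MTHFD1L to MTHFD1 went from 1.56 ± 0.0555 to 2.90 ± 0.135, with all shNUF2 libraries higher. The ratio of MTHFD2L to MTHFD1 was 0.120 ± 0.00552 with shNC and 0.232 ± 0.00309 with shNUF2, also without overlap. Within mitochondria, the FPKM ratio of MTHFD2 to its paralog MTHFD2L was 16.3 ± 1.19 with shNC and 6.75 ± 0.108 with shNUF2, so MTHFD2 stayed the more abundant transcript in every library. With principal transcript lengths the ratio of MTHFD1L to MTHFD1 was 0.545 with shNC and 1.01 with shNUF2, so the order of these 2 genes with shNC also depended on the length. The same lengths gave ratios of 5.63 and 5.40 for SHMT2 to SHMT1, 1.29 and 1.03 for MTHFD2 to MTHFD1, and 9.79 and 4.06 for MTHFD2 to MTHFD2L, with shNC and shNUF2 in turn.

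**Figure D3:**
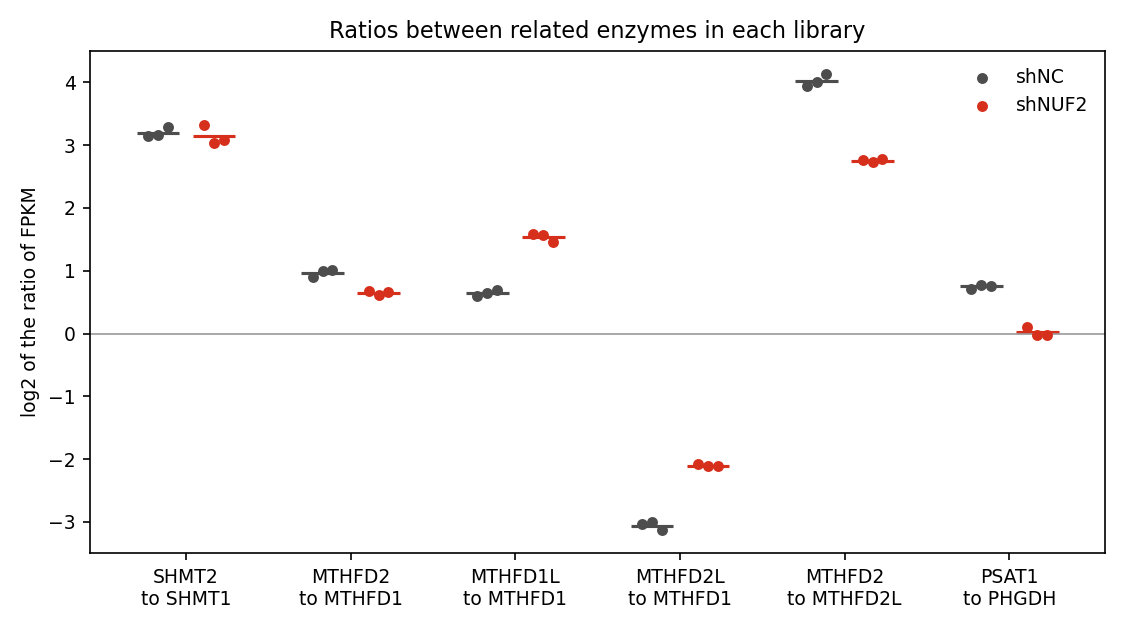
Log2 of the FPKM ratio between related enzymes in each library, with shNC in grey, shNUF2 in red and the group mean as a line. SHMT2 to SHMT1 overlaps between the groups, MTHFD2 to MTHFD1, MTHFD2 to MTHFD2L and PSAT1 to PHGDH are lower with shNUF2, and MTHFD1L and MTHFD2L to MTHFD1 are higher.

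The order of the levels per length changed as well. On the FPKM scale of the deposited lengths, PSAT1 led with 97.1 ± 4.31 with shNC (SD, n = 3), before SHMT2 with 79.2 ± 2.54 and PHGDH with 57.7 ± 1.44. ALDH1L2 (21.3), MTHFD2 (19.7), PSPH (16.9) and MTHFD1L (15.8) followed, each overlapping its neighbour in that order, and then MTHFD1 (10.1), SHMT1 (8.62) and MTHFD2L (1.21), which did not overlap. With shNUF2, SHMT2 led at 45.4 ± 1.14 FPKM, and MTHFD1L, at 16.6, stood above PSAT1 at 14.9 and PHGDH at 14.8, which overlapped. MTHFD2 (8.999) came next, then MTHFD1 (5.74) and SHMT1 (5.16), which overlapped, PSPH (3.79) and ALDH1L2 (3.55), which overlapped, and MTHFD2L (1.33). This order turned in part with the lengths of principal transcripts. PHGDH then led with shNC at 205, above SHMT2 at 143 and PSAT1 at 97.9, as FPKM rescaled to these lengths. With shNUF2 and these lengths, SHMT2 (82.2) and PHGDH (52.5) stood above MTHFD1L (22.6) and PSAT1 (15.1), and ALDH1L2 (4.47) was lowest, below MTHFD2L (5.69). SHMT2 was among the 2 highest members in both groups with either length.

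The promoters of the members were searched for letters that the choice of the set had not used. RefSeq windows on GRCh38.p14, from 250 bases before to 50 bases after a start, were at hand for 7 of the 10 members, not for PSPH, SHMT2 and ALDH1L2. TGATGNAA, the letters of the element bound by ATF4 with a CCAAT/enhancer-binding partner, was found on either strand in 1 of 7 members, MTHFD1L, beside 3.65% of the 15166 genes of the table with a window. CCAAT on either strand, a search chosen after the values were seen, was found in 6 of 7 members, all but MTHFD2L, beside 42.5% of these genes. Neither set of letters contains the other. A match describes the letters only, and no match says only that these letters are not in the window. The lines give 30 bases around 1 match in each of these genes other than PSAT1, with the match in capitals, read on the strand of the gene, at 71 (PHGDH), 74 (MTHFD2), 216 (MTHFD1), 25 (SHMT1) and 129 (MTHFD1L) bases before the start. They lie at chr1:119711851-119711880, chr2:74198529-74198558, chr14:64388125-64388154, chr17:18363558-18363587 (minus strand) and chr6:150866345-150866374, and ATTGG is CCAAT on the other strand. Of the 250 bases before the start used here, 219 (PHGDH), all but 1 (MTHFD2), all 250 (MTHFD1), 13 (SHMT1) and 55 (MTHFD1L) are exonic in some transcript of GENCODE release 29.
PHGDH: gagtatttccgtCCAATcaaaaggagactg
MTHFD2: atgcggcagggaCCAATgggtggcggaggg
MTHFD1: tctttctttccgCCAATcatttccgccagc
SHMT1: ctgcgctctctgATTGGgcgcctccggggg
MTHFD1L: ggccgccggctcTGATGCAAtcgcgccggg

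Windows of MTHFD1L held TGATGCAA in 3 of 4 cases, since these windows overlap. The 3 CCAAT matches of PSAT1 shown above were the most in any window of the 7 members searched.

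Around the 10 enzymes, 84 genes of neighbouring pathways were listed and 73 were tested. Of these, 8 were lower and 2 higher by the study's thresholds, beside 4.16% and 9.41% of all genes tested. At an adjusted p under 0.05 (edgeR quasi-likelihood test, Benjamini-Hochberg), 39 were lower, beside 33.8% of all genes tested, and 18 were higher, beside 33.9%. The remaining 16 did not pass. The same shares of all genes stand beside the counts at this adjusted p in each list below. The median log2 fold change of the neighbouring genes was -0.25. It was -0.94 for the members, which were chosen from this contrast, and -0.01 for all genes.

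Of these 10 genes past the thresholds, 5 were in the list for serine and glycine transport and use. Of the 14 genes of this list, 4 were lower and 1 higher past the thresholds, beside 4.16% and 9.41% of all genes tested. The list had a median log2 fold change of -0.38. SLC6A9, a glycine transporter, had 81.0 ± 4.23 CPM with shNC and 8.496 ± 0.676 CPM with shNUF2 (SD, n = 3), a log2 fold change of -3.25 (standard error 0.08, edgeR quasi-likelihood test, Benjamini-Hochberg adjusted p = 1.34e-21), a larger decrease than that of any member. SLC1A4 and SLC1A5, neutral amino acid transporters that carry serine among others, were lower with log2 fold changes of -1.78 and -1.28. SFXN2, a mitochondrial sideroflexin of the family that carries serine, had a log2 fold change of -1.003, which lay on the threshold and was past it under 8 of 16 alternatives. SDS, the serine dehydratase, was higher with a log2 fold change of 2.23, but the control libraries had only 2, 4 and 8 reads of it and the knockdown libraries 18, 14 and 27. The 2 most abundant genes of this list, the amino acid transporters SLC38A2 and SLC38A1, fell by 0.51 and 0.76.

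Of the 10 tested genes of the methionine cycle and transsulfuration (13 listed), 7 were lower and 1 was higher at an adjusted p under 0.05, with a median log2 fold change of -0.48. CBS, which joins serine to homocysteine, went from 17.5 ± 1.95 to 2.73 ± 0.677 CPM (SD, n = 3). Its log2 fold change was -2.69 (standard error 0.17, edgeR quasi-likelihood test, Benjamini-Hochberg adjusted p = 1.65e-13). This value rested on 35, 45 and 32 reads with shNUF2, and ranged from -2.89 to -1.37 over the 16 alternatives of processing given below. CTH, which makes cysteine in the following step, fell by 1.22. MAT2A, which makes S-adenosylmethionine, rose by 0.25, and AHCYL1, a relative of the adenosylhomocysteine hydrolase, fell by 0.65.

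All 13 genes listed for purine synthesis were tested, and 11 of them were lower and 1 higher at an adjusted p under 0.05, with a median log2 fold change of -0.51. The amounts were smaller than for serine synthesis, and only ADSS1, an adenylosuccinate synthase, was past a log2 fold change of -1 (-1.13). PAICS and PRPS2, the most abundant of this list, fell by 0.38 and 0.15.

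Folate uptake and interconversion had 9 of 13 genes tested, of which 6 were lower and none (0) higher at an adjusted p under 0.05, with a median of -0.28. DHFR2, a mitochondrial dihydrofolate reductase, fell by 1.06. FOLR1, the folate receptor abundant in serous ovarian cancer, fell by 0.31 from 3499 ± 156 to 2755 ± 86.9 FPKM (SD, n = 3). FPGS, which adds the glutamate tail that keeps folate in the cell, had a log2 fold change of -0.07 that did not pass. Of 8 other mitochondrial folate and glycine cleavage genes, 4 were tested, 2 were lower and 1 was higher, with DLD, a subunit shared with other dehydrogenases, down by 0.69 and MTFMT, the methionyl-tRNA formyltransferase, down by 0.39. The higher gene was GLDC, the decarboxylase of glycine cleavage, named after its values were seen, which rose by 0.93 on 25 to 71 reads per library.

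Glycolysis next to the substrate of PHGDH went the other way. All 6 genes were higher at an adjusted p under 0.05, beside 33.9% of all genes tested. Their median log2 fold change was 0.43, with none (0) past 1. GAPDH rose by 0.49 and ENO1 by 0.10. The tricarboxylic acid cycle, which served as a measure of mitochondrial enzymes at large, had 17 genes tested, with a median of -0.08. At an adjusted p under 0.05, 6 were lower and 3 higher, beside 33.8% and 33.9% of all genes tested. The other 8 did not pass. IDH2, the mitochondrial isocitrate dehydrogenase that makes NADPH, rose by 1.15, whereas FH fell by 0.70 and SDHC by 0.32.

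**Figure D4:**
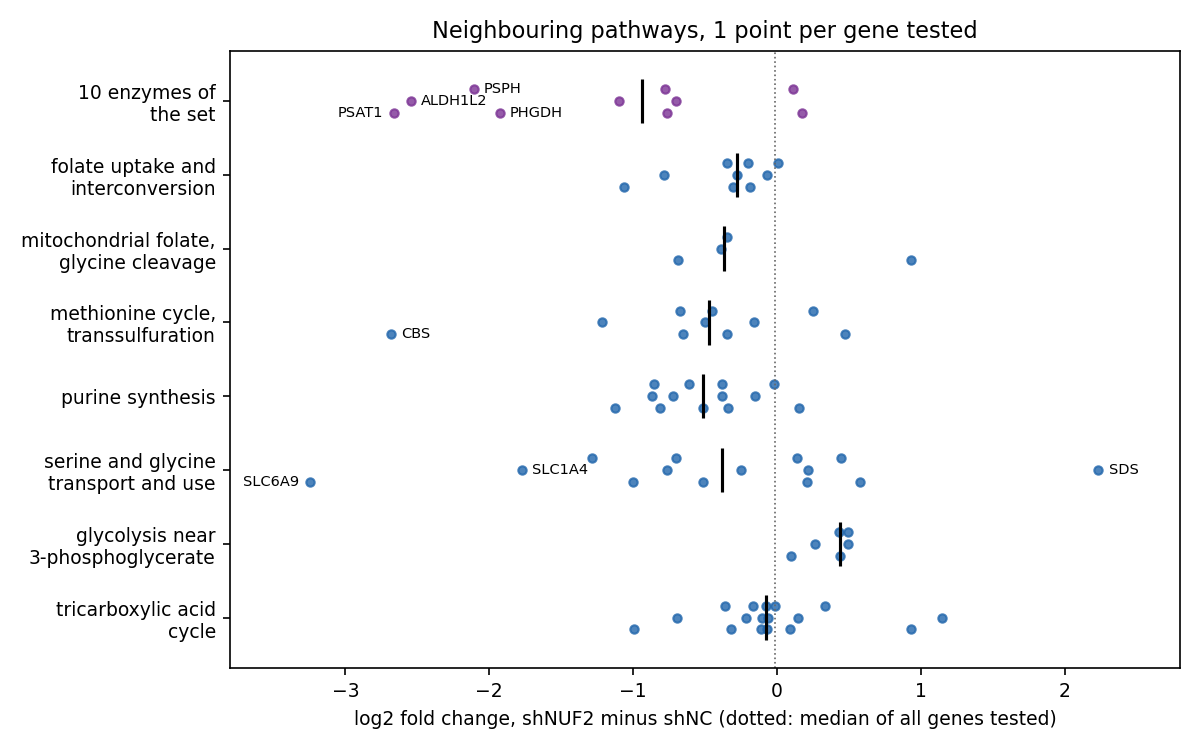
Log2 fold change (shNUF2 minus shNC) of each gene tested in the set and in 7 neighbouring lists, with the list median as a black bar and the median of all genes as a dotted line. The set was chosen from this contrast and has a median of -0.94. The glycolysis genes alone lie wholly to the right, with a median of 0.43.

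The known regulators of these enzymes described here differed by log2 fold changes under 1 in size. ATF4, the transcription factor of the amino acid response that induces PHGDH, PSAT1 and MTHFD2, went from 356 ± 2.79 to 219 ± 4.04 CPM (SD, n = 3), a log2 fold change of -0.70 (standard error 0.04, edgeR quasi-likelihood test, Benjamini-Hochberg adjusted p = 4.19e-14). NFE2L2, the oxidative stress factor, fell by 0.67 and its inhibitor KEAP1 by 0.54. MYC had a log2 fold change of -0.08 that did not pass (edgeR quasi-likelihood test, Benjamini-Hochberg adjusted p = 0.102), and KDM4C, a histone demethylase, rose by 0.21. ATF4 is regulated in large part by translation, which these libraries do not measure. Of 7 proliferation markers, 3 were lower and 1 higher at an adjusted p under 0.05, beside 33.8% and 33.9% of all genes tested. The other 3 did not pass. The median log2 fold change of the 7 markers was -0.05, and the most abundant, TOP2A and PCNA, fell by 0.67 and 0.39. Their part in the lower values of the folate enzymes was not tested.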

How the data were processed

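OVCAR3 RNA was prepared with a stranded poly(A) mRNA kit and sequenced on an Illumina NovaSeq by a service company, with 3 libraries per hairpin. Per the labels' processing notes, cutadapt, HISAT and HTSeq were used with GRCh38.p13, with versions and strand setting not given in the sources used here. The authors deposited raw counts per gene, gene lengths in base pairs, positions and FPKM. The deposited FPKM equals the count per length and library total to within a relative deviation of 2.71e-07. All per-sample columns were used.

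Counts were fitted in edgeR 4.0.16 (R 4.3.3) with filterByExpr, TMM scaling and the quasi-likelihood test over all 6 libraries without covariates, and p-values were adjusted by Benjamini-Hochberg over all 12874 genes tested. Calls needed a log2 fold change over 1 in size with p under 0.05 before adjustment, which is how the methods of the study were read. CPM use the TMM-scaled library size, and the standard error is the fold change over the root of the F statistic. An exact permutation test of 3 against 3 libraries cannot go below p = 0.1. Genes named are the 10 members, NUF2, the genes of each list past a log2 fold change of 1 and an adjusted p of 0.05 (at most the 5 largest), the 2 of highest mean FPKM in a list, and all tested regulators but 1, which is not reported here. ALDH1L1 and GLDC were named after their values were seen. The members, lists and tests were chosen with earlier results of these data known. By the same rule KRT8 among the epithelial markers (log2 fold change 1.04), DCN among the fibroblast markers (1.22) and CDH5 among the endothelial markers (3.45, from 1, 1 and 4 reads in control and 15, 19 and 27 in knockdown libraries) are named. Of the most abundant markers, KRT7 had a log2 fold change of -0.22, COL1A1 of -0.39 and PECAM1 of -0.02.

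Alternatives were DESeq2 size factors, upper quartile or library totals as scaling, the Wald test of DESeq2 1.42.0, no filter or at least 1 CPM in every library, the replicate number as a block, limma 3.58.1 on log2(FPKM + 1) and log2(FPKM + 0.1), an adjusted p, and each library left out. Samples with the same replicate number did not deviate together (correlations of 0.044, 0.034 and -0.056 over 11776 genes), so the main fit had no block. Libraries of a group differed by more than counting noise (chi-square per degree of freedom 2.64 to 4.38), which does not show whether they came from separate RNA or cultures. Exon overlaps and principal transcripts came from GENCODE release 29, in which 4 pseudogenes of PSAT1, 7 of MTHFD2 and 1 each of PSPH, SHMT1 and MTHFD1 are annotated, so reads shared with them are uncertain. Opposite-strand exons overlap 11.0% of the exon length of MTHFD1 and 9.51% of that of SHMT2 in that release. Its exon lengths differ from the deposited ones for both genes. Promoters came from RefSeq (GRCh38.p14). A comparison of protein sequences was not run here. Sequence searches used Python 3.11.15.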

Additional observations from a re-analysis of the deposited data

How the results depend on the processing

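The same 5 members (PHGDH, PSAT1, PSPH, MTHFD2 and ALDH1L2) were past the thresholds under each of the 16 alternatives. Of 150 fold changes of members under alternatives that give one, 0 changed sign and 7 moved by more than the spread between replicates. MTHFD2, nearest to the threshold, ranged from -1.13 to -1.05. With the replicate number as a block, 5 members were lower, as were 536 of all genes, and 1207 were higher. The block changed no call of a member. At least 1 CPM in every library, which tested 11711 genes, gave 756 genes higher and 1 of the other pathway genes higher. On log2(FPKM + 1), which compresses low values, 206 genes were lower and 430 higher, with 1 of the other pathway genes higher. Leaving out 1 library gave 2 to 4 other pathway genes higher, with 4 without shNC replicate 1. The count of other pathway genes lower, 8, ranged from 6 (without shNC replicate 2, and on log2(FPKM + 1)) to 10 (no filter). SFXN2 was not past the thresholds under 8 alternatives, among them without shNC replicate 2 and without shNUF2 replicate 1 or 2, and DHFR2 under 2 of them (without shNC replicate 2 and on log2(FPKM + 1)). SDS was past them under 14 alternatives, and CBS, CTH, ADSS1, SLC6A9, SLC1A4, SLC1A5 and IDH2 under all 16. The mean difference between mitochondrial and cytosolic folate enzymes reversed from -0.08 to 0.35 without ALDH1L2, which was chosen after seeing the data. The fewest reads of a member in a library were 131 (PSPH).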
